A study of Mus musculus with 16 samples.

Results

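The sites described here are BMAL1 binding sites in mouse liver that lay in an intron and were called in the male misaligned ZT12 library and in no other. They were chosen from the deposited table of merged binding intervals by 3 criteria, namely a call in that library, a count of 1 calling library and an intron annotation. The rule left 1537 sites, which were 21.8% of the 7043 intervals of the table, 27.7% of the 5540 intervals called in that library and 37.4% (95% exact interval 35.9 to 38.9) of the 4106 intervals called in it alone. Intervals called in that library alone made up 58.3% of the table. Because the calls themselves chose the sites, their number and strength are descriptions and carry no test.

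The data are BMAL1 chromatin immunoprecipitation libraries from livers of C57bl6 mice, with 8 BMAL1 libraries, 1 for each combination of treatment (misaligned or control), sex (male or female) and Zeitgeber time (ZT12 or ZT0), and 8 IgG libraries whose peaks are not analysed here. Each library was a pool of 3 to 4 animals, so no group had a replicate and no difference below has a replicate check. All animals, controls included, were 8 to 16 weeks old and received a high-fat diet (42% of calories from fat) once the misalignment or control schedule began, under a cycle of 12 h light and 12 h dark before it. What the misalignment schedule consisted of is not given in the sources used here. The male misaligned ZT12 list held 5542 peaks, against 141 to 1864 peaks in the other 7 lists, and the lowest local background in the lists was 4.25 fragments in male misaligned ZT12 and 4.32 to 6.16 fragments in the other libraries. Known targets served as a check of the antibody. In the male misaligned ZT12 library 14 intervals at 12 of 22 core clock genes were also called in all the other libraries.

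BMAL1 pairs with CLOCK to form the transcription factor at the head of the circadian clock, and the pair binds E-box elements, whose canonical form is CACGTG. Its targets include the genes of its own repressors, the Period and Cryptochrome proteins, and in liver many genes of glucose, lipid and xenobiotic metabolism. Introns hold many of the enhancers of liver genes, and a site inside a gene need not act on the gene that holds it.

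Sequence could be read only where a site reached a RefSeq promoter window (250 bases before to 50 bases after an annotated start). An intronic site can reach one at the start of a further transcript or of a neighbouring gene. This held for 40 of the 1537 sites (2.60%), which overlapped 43 windows, and 8 of these windows (18.6%, 95% exact interval 8.39 to 33.4) contained CACGTG. The share was 20.2% of 905 windows under promoter sites unique to the library, 24.8% of 1846 windows under any interval of the library and 7.15% of all 32851 windows. The motif reads the same on both strands. The related motif CACGTT, searched on both strands, was in 3 of the 43 windows (6.98%) and in 4.68% of all windows, and the loose form CANNTG, which includes CACGTG, was in 36 of 43 (83.7%) and in 72.3% of all. The windows under unique intronic sites thus held the canonical E-box at a share above that of all windows, with an interval that includes the shares under the other calls of the library. CACGTG lay inside the called site in 6 of the 8 windows. The summit lay in a window for 15 of the 40 sites.

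The windows shown here are those in which a CACGTG lay inside the called site, and after them that of the strongest site overlapping any window, which has none. They are RefSeq sequences of GRCm38.p6, 300 bases each, written in the direction of the gene, with CACGTG in capitals.
Nop2, chr6:125131633-125131932, plus strand: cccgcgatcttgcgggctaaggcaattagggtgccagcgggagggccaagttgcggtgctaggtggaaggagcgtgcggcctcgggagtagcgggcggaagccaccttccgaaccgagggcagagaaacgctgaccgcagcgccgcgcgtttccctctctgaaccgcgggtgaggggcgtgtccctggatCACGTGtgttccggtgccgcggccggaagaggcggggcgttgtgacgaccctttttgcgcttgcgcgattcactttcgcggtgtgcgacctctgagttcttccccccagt
Mrpl36, chr13:73330759-73331058, plus strand: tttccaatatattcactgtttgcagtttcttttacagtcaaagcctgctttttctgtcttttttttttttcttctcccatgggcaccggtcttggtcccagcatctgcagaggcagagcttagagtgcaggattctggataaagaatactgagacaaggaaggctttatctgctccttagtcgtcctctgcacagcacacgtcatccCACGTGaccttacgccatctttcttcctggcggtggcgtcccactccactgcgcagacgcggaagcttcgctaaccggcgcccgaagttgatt
Nmd3, chr3:69721805-69722104, plus strand: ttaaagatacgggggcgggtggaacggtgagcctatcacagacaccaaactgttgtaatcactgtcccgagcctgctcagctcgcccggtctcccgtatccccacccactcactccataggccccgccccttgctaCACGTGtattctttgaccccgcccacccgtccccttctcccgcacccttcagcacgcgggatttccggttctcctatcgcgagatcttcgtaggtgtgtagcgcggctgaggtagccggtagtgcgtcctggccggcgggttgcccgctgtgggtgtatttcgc
Tom1, chr8:75033436-75033735, plus strand: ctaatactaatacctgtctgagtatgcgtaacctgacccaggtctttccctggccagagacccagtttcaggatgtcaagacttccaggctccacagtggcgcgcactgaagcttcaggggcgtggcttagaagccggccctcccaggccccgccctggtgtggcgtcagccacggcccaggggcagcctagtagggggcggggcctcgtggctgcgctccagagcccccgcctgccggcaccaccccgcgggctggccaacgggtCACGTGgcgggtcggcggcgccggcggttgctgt
Gm34510, chr17:14202243-14202542, plus strand: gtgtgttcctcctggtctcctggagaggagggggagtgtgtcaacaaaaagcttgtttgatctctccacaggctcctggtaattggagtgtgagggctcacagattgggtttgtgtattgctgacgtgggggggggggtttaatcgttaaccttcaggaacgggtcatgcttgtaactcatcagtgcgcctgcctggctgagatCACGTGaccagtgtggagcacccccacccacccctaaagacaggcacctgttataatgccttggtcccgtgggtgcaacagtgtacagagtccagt
Gm30505, chr16:22894337-22894636, minus strand: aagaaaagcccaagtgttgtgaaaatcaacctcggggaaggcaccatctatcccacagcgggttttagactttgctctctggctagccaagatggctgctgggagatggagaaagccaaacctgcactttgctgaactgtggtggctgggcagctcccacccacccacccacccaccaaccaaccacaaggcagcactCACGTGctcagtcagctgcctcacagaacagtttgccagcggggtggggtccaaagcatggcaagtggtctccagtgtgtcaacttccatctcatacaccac
Echs1, chr7:140116372-140116671, minus strand: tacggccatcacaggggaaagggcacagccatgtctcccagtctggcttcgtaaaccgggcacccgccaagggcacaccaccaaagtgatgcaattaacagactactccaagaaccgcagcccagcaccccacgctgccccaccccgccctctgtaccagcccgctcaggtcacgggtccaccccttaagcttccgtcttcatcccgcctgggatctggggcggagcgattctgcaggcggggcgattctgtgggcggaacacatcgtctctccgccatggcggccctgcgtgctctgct

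The E-box lay 4 bp from the summit of the site in Gm30505, 16 bp in Mrpl36, 20 bp in Tom1, 68 bp in Gm34510, 250 bp in Nop2 and 518 bp in Nmd3. Gm30505 is a predicted RefSeq gene whose start lies inside Ahsg, the gene of fetuin-A, a protein that hepatocytes secrete into plasma. The Ahsg site is in intron 2 of 6 and was weak, with 22 summit fragments over a local background of 6.49, and −log10 q, the authors' significance score for a peak, was 3.08. Mrpl36 encodes a mitochondrial ribosomal protein, Tom1 a protein of endosomal sorting, Nop2 a ribosomal RNA methyltransferase and Nmd3 an export adaptor of the large ribosomal subunit. Their sites had −log10 q of 13.1, 10.8, 15.5 and 10.8. Gm34510 starts inside Dact2, and that site had −log10 q of 7.46. These 6 sites ranked from 927 to 4292 among the 5542 peaks of the library, so none was among its strongest. The strongest site over any window, at Echs1, had −log10 q of 31.7 and no CACGTG in its window, and its summit lay outside that window.

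Unique intronic sites were weak calls for their library. Their median −log10 q was 4.07 (quartiles 2.71 and 6.80, range 1.33 to 71.1) and their median fold enrichment over local background was 3.43, both as the authors' peak caller gave them. The median summit held 24 fragments over a local background of 5.93 fragments, both recovered from the deposited values. Intronic sites of the same library that another library also called (321 sites) had a median −log10 q of 13.3, a fold enrichment of 4.91 and 44 summit fragments. The merged intervals had a median width of 360 bp at unique intronic sites and 565 bp at shared ones. A shared interval joins the peaks of several libraries, so these widths do not compare peaks of this library. The local background under the shared sites was higher too, at 7.80 fragments.

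Among the sites unique to the library, the intronic class was close to the intergenic one and below the promoter one. Median −log10 q was 4.07 (95% interval of the median 3.96 to 4.33) for the 1537 intronic sites, 4.27 (4.07 to 4.55) for the 1140 intergenic sites and 5.04 (4.70 to 5.28) for the 1083 promoter sites. Summit fragments had medians of 24, 24 and 27 in the same order. Of the intronic sites 40.1% reached −log10 q of 5, 13.1% reached 10, and 15 sites reached 30. Only 1 of them stood among the 100 strongest peaks of the library and 34 among the 500 strongest.

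**Figure D1:**
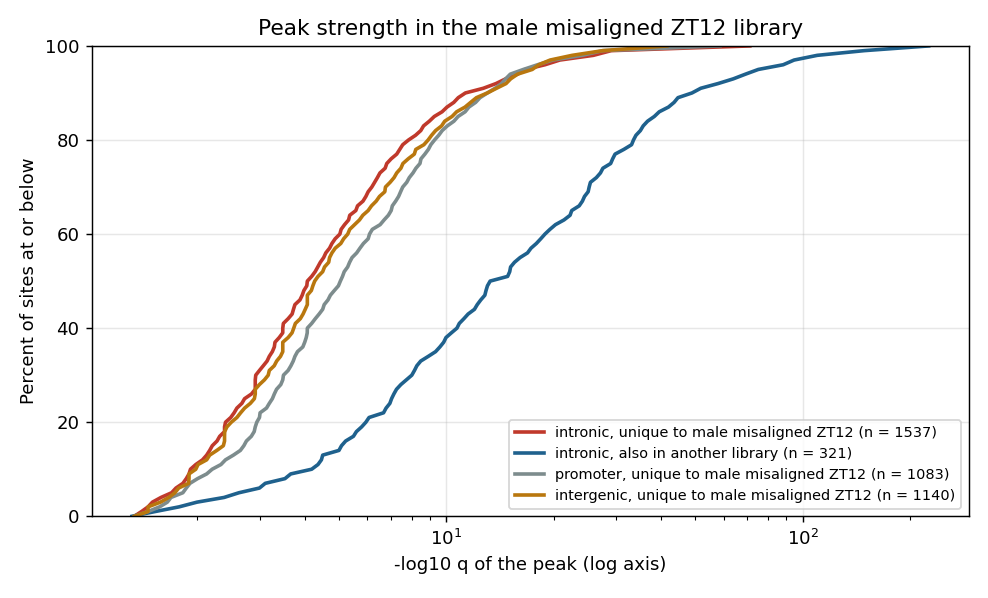
Cumulative percent of sites (vertical axis) at or below each −log10 q (horizontal log axis) in the male misaligned ZT12 library, for unique intronic, shared intronic, unique promoter and unique intergenic sites. The unique intronic curve, with a median of 4.07, runs close to the unique intergenic curve and far left of the shared intronic curve, whose median is 13.3.

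Along the list, the unique intronic class grew toward the weak end. Of the strongest decile of peaks (554 peaks, −log10 q of 22.9 or more), 39 peaks or 7.04%, were unique and intronic (95% exact interval 5.05 to 9.50). In the weakest decile the count was 218, or 39.4% (35.3 to 43.6). Uniqueness alone grew from 16.4% of the strongest decile to 94.6% of the weakest. Intron location, which does not depend on the other libraries, also grew along the list, to 41.7% of the weakest decile, against 27.1% of the strongest.

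**Figure D2:**
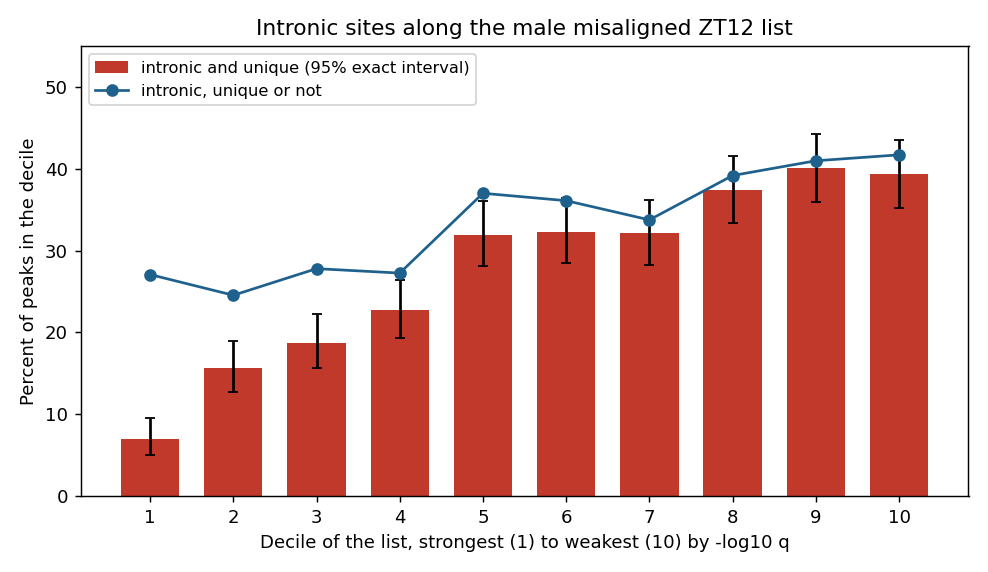
Percent of peaks in each decile of the male misaligned ZT12 list (vertical axis), from the strongest decile on the left to the weakest on the right. Bars are unique intronic sites with 95% exact intervals and run from 7.04% to 39.4%. The line is all intronic peaks, unique or not, which made up 27.1% of the strongest decile and 41.7% of the weakest.

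Introns took a larger share of unique than of shared intervals. Their share was 37.4% of intervals unique to the library, against 22.4% (20.3 to 24.6) of the 1434 intervals it shared with another library and 33.4% (31.0 to 35.8) of the 1503 intervals it did not call. Promoter sites ran the other way, with 26.4% of the unique intervals, 52.9% of the shared ones and 34.8% of those not called in it. In the male misaligned ZT0 library, which had the next longest list, the intron share of the 807 unique intervals was 37.1% (33.7 to 40.5), close to the 37.4% of male misaligned ZT12. It was 26.3% (22.0 to 30.9) of the 396 intervals unique to female misaligned ZT0. The highest share of any library was 46.8% (37.2 to 56.6), of the 109 intervals unique to female control ZT0. The lowest was 24.1% (10.3 to 43.5), of the 29 unique to female misaligned ZT12.

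The strongest unique intronic site lay in intron 1 of AU019990, a gene the annotation gives by this name alone, 1116 bp from the start (chr2:132599035-132599587, coordinates of GRCm38 throughout). It held 93 summit fragments over a local background of 5.87, a fold enrichment of 13.7, and −log10 q was 71.1, which ranked it 90 of 5542 peaks. The nearest peak of another library was 749243 bp away. Bend7 followed with a site in intron 6 of 8 (chr2:4777245-4777915, −log10 q 47.0), 57032 bp from the start of Gm13176, its nearest annotated gene. Kif26b, a kinesin family gene, held a site in intron 2 of 3 (chr1:178600814-178601480, −log10 q 45.8), whose nearest annotated gene was Gm24405. All 3 stood 218467 bp or more from any peak of another library.

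Of the other 12 strongest sites, 5 are given here. Hpn encodes hepsin, a membrane serine protease abundant on hepatocytes, and its site in intron 2 of 12 had 81 summit fragments over a background of 9.92 (chr7:31108979-31109653, −log10 q 40.4). A site 9433 bp upstream of the start of Cyp2u1, a cytochrome P450 gene, had 61 fragments over 4.88 (chr3:131312390-131312877, −log10 q 40.1) and lies in an intron of another annotated transcript. Haao encodes an enzyme of the kynurenine route from tryptophan to NAD, and its site in intron 4 of 9 had 73 fragments over 8.11 (chr17:83835993-83836419, −log10 q 39.0). Echs1 encodes the enoyl-CoA hydratase of mitochondrial fatty acid oxidation, and its site 280 bp from the start had 59 fragments over 6.38 (chr7:140115481-140116737, −log10 q 31.7). The site in intron 13 of 18 of Ephx2, the gene of soluble epoxide hydrolase, had 57 fragments over 5.75 (−log10 q 32.1), and its nearest annotated start was that of Adam2, 11658 bp away.

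The remaining 7 of the 15 strongest had −log10 q of 30.8 to 38.4. Ino80, the ATPase of a chromatin remodelling complex, held one at 38.4 (nearest gene Gm14208), Cyfip2, an actin regulator, one at 37.8, and Dock1, a guanine nucleotide exchange factor for Rac, one at 37.4 (nearest gene Gm24581). Ergic1, of the early secretory pathway, held one at 33.7 (nearest gene Gm22420), Dis3l2, an RNA exonuclease gene, one at 32.4, Nup62, a nuclear pore gene, one at 31.3, and B230206L02Rik one at 30.8. Of these, the sites in Ergic1 and Dis3l2 were about 10 kb from a peak of another library (10610 bp and 9202 bp), and the other 5 were 188906 bp or more away.

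At the low end the rule's limits were fine ones. The weakest sites inside were in or nearest to Oaf, Gna12 and Fam20a, each with −log10 q of 1.33 and 18 to 20 summit fragments. Just outside were intronic intervals that 1 other library also called at its own threshold. The interval at Ube2g1 had −log10 q of 29.7 in male misaligned ZT12 and 1.32 in female misaligned ZT0, and those at Nos1ap and at Fam107b (nearest gene Gm13183) had 12.8 and 3.44 in male misaligned ZT12 and 1.42 each in male misaligned ZT0. Among 203 intronic intervals shared with exactly 1 other library, that library was male misaligned ZT0 for 128 and female misaligned ZT0 for 55, so the 2 longest other lists supplied most of them. Depth and list length differ between libraries, and their part in what counts as unique was not tested.

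Within genes, unique intronic sites lay more often near the start than near the end, and less often in intron 1 than shared ones did. Intron 1 held 43.0% of them (95% exact interval 40.5 to 45.5), against 52.6% (47.0 to 58.2) of the shared intronic sites and 44.0% (39.6 to 48.5) of the intronic intervals not called in the library. Intron 2 held 20.2% and later introns 36.8%. Strength did not follow intron number, as the median −log10 q was 4.13 in intron 1 (95% interval 3.89 to 4.52), 4.04 in intron 2 (3.73 to 4.35) and 4.09 in later introns (3.88 to 4.52), intervals that overlap throughout. For the 1076 sites placed along the gene that holds them, 26.1% lay in the fifth of the gene at its start, 12.6% in the fifth at its end and 19.5% to 21.1% in each of the others. For 215 shared intronic sites the same shares were 25.6% at the start and 12.1% at the end, close to those of the unique sites.

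Distance to the nearest annotated start had a median of 13864 bp (quartiles 5481 and 32201), against 11699 bp for shared intronic sites and 20060 bp for unique intergenic sites. Within 1 kb of a start lay 5.40% of the unique intronic sites, within 10 kb 40.4% (37.9 to 42.9), and beyond 100 kb 5.01%. For 56.5% of sites (54.0 to 59.0) the nearest start belonged to the gene whose intron held the site. The nearest annotated gene was protein-coding for 62.8%, and the rest were nearest to predicted, non-coding or otherwise annotated genes, which is why several strong sites carry Gm names.

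The X chromosome held almost none of these sites. There were 4 on X (0.26%, 95% exact interval 0.071 to 0.665), at Cldn2, Lonrf3, Pgrmc1 and Nhsl2, while X carries 4.42% of the length of protein-coding gene bodies. Per megabase of gene body, X had 0.0876 sites (95% Poisson interval 0.0239 to 0.224), and the autosomes ran from 1.06 on chromosome 14 to 2.29 on chromosome 19, with a median of 1.58. The same library had 20 of 1083 unique promoter sites (1.85%, 1.13 to 2.84) and 8 of 1140 unique intergenic sites (0.70%) on X, and 0 of 321 shared intronic sites, which allows up to 1.14%. Whole lists had 0% to 1.33% of peaks on X in all 8 libraries of both sexes. The share of X was thus low in the lists of both sexes. Among the 4, Cldn2 encodes a tight-junction claudin (29 fragments over 6.38) and Pgrmc1 a haem-binding membrane protein (15 fragments over 4.25).

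A few sites stood on unusual background. At 4 sites the local background reached 5 or more times the library's lowest value, 1 in the pseudogene Pisd-ps2 (171 fragments over 99.9) and 3 nearest to Hjurp on chromosome 1 (52 to 79 fragments over 26.4 to 39.7). The fold enrichment at these 4 was 1.70 to 1.97, below the lower quartile of 3.04 for all unique intronic sites.

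By RefSeq gene bodies, 1164 of 21900 protein-coding genes (5.32%) held at least 1 unique intronic site, and the sites fell in long genes. The median length of such genes was 72.7 kb, against 17.1 kb for all protein-coding genes. The share of genes with a site was 1.15% of genes up to 20 kb, 5.83% at 20 to 50 kb, 10.97% at 50 to 100 kb, 15.4% at 100 to 200 kb and 23.5% above 200 kb. Per megabase of gene body the order differed, with 1.56, 2.04, 1.77, 1.45 and 0.807 sites across the same classes, so the longest genes had the fewest per length.

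Genes with a unique intronic site also had other BMAL1 calls more often than genes of the same length class without one. The classes are wide, and lengths within a class were not compared. Their promoter was called in the same library for 125 of 1164 genes, or 10.7% (9.02 to 12.7), against 6.09% of all protein-coding genes. Within each length class the order held, at 14.0% of genes with a site against 5.45% of genes without one up to 20 kb, 12.3% against 5.94% at 50 to 100 kb, and 6.01% against 2.51% above 200 kb. The exact intervals overlapped at 100 to 200 kb (5.95 to 14.1 against 4.00 to 6.57) and above 200 kb (3.32 to 9.88 against 1.52 to 3.89). An interval called in another library lay inside 21.1% (18.8 to 23.6) of the genes with a site, against 5.32% of all genes. By length this was 7.35% against 2.46% in the shortest class, 22.8% against 8.26% at 50 to 100 kb, and 33.5% against 8.72% in the longest. Genes near unique intergenic sites had such calls too. A promoter was called in the same library for 10.7% and in another library for 7.39% (5.95 to 9.04) of genes with a unique intronic site, against 14.7% (11.6 to 18.1) and 9.92% (7.40 to 12.9) of 484 genes nearest a unique intergenic site. The promoter calls of the library were not used to choose the sites. Calls of other libraries were used, since the rule left out every intronic interval that another library called. The shares with such calls are therefore descriptions and no independent check.

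**Figure D3:**
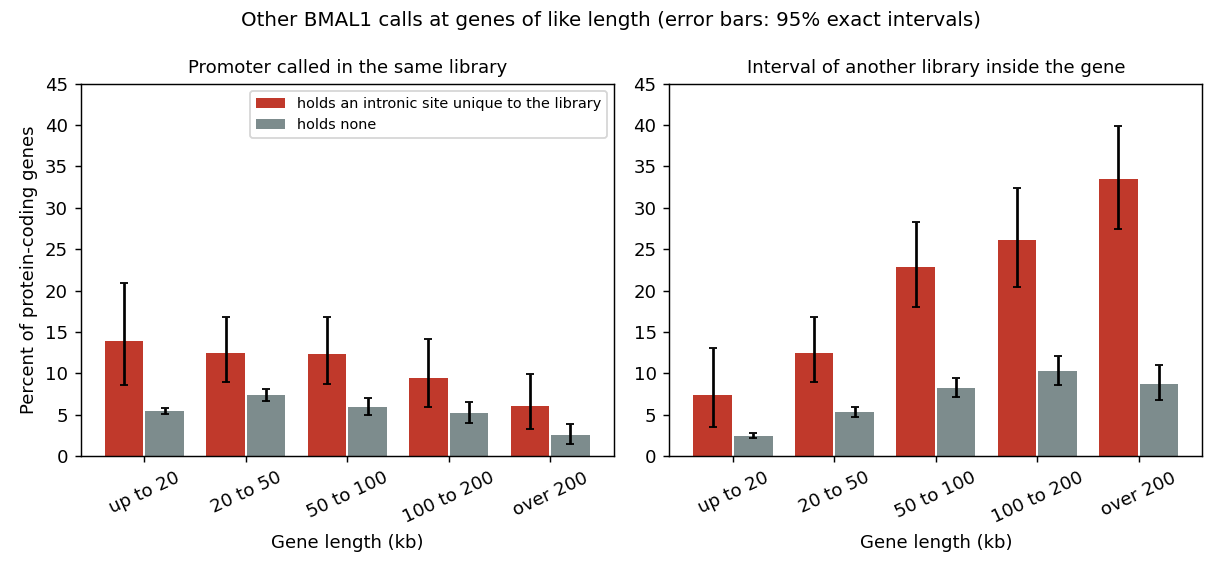
Percent of protein-coding genes (vertical axis) whose promoter was called in the male misaligned ZT12 library (left panel) or whose body held an interval of another library (right panel), by gene length in kb, for genes with a unique intronic site and genes without one. Bars are shares with 95% exact intervals, and in all 5 length classes of both panels the genes with a site stand higher, as in the longest class of the right panel with 33.5% against 8.72%. In the left panel the intervals overlap in the classes above 100 kb.

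Close by, other libraries seldom had a peak, which the rule sets in part. An interval that a peak of another library overlapped was left out, for the intronic, promoter and intergenic classes alike. A peak of any other library lay within 1 kb of 36 sites (2.34%), within 10 kb of 181 (11.8%, 10.2 to 13.5) and within 100 kb of 712 (46.3%). For unique promoter sites the shares were 2.86%, 9.70% and 46.4%, and for unique intergenic sites 1.67%, 10.5% and 44.7%, so intronic sites did not stand apart from them. By library, the longest other lists gave the most, with a peak within 10 kb of 7.55% of sites for male misaligned ZT0 and 6.25% for female misaligned ZT0, against 0.846% to 1.82% for the other 5. The strongest sites with such a neighbour within 1 kb were at Per1 (643 bp), near Gm14165 (277 bp) and in Rapgef2 (343 bp), with −log10 q of 28.4, 21.7 and 14.7. A site in Nfia, a gene of the nuclear factor I family, was 19 bp from a peak of another library and was unique only by that gap.

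Most genes held a single site, but 196 held several. There were 968 genes with 1 site, 159 with 2, 27 with 3 and 10 with 4 or more. The genes with most were Prkce, which encodes protein kinase C epsilon, and Sh3pxd2a, a scaffold gene of podosomes, with 6 sites each. In Sh3pxd2a they spanned 157 kb of a 204 kb gene, with −log10 q of 1.44 to 12.7, and no interval of another library lay inside the gene. In Prkce they spanned 154 kb of 490 kb, with −log10 q of 2.91 to 16.7. Rbm47, an RNA-binding protein gene, and Pde4d, a cAMP phosphodiesterase gene, held 5 each, with up to 11.4 and 9.55. Slc38a4, an amino acid transporter gene of hepatocytes, held 4 in 61.1 kb, or 6.54 per 100 kb, with −log10 q of 4.65 to 15.8, and 3 intervals of other libraries lay in the same gene. Nr3c2, which encodes the mineralocorticoid receptor, Pard3, Arid1b, Parva and Utrn also held 4 each. The genes with several sites were mostly long, and Slc38a4 was the shortest of these 10.

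By nearest start in place of gene body, 160 genes had 2 sites or more. Sh3pxd2a had 5 sites, and Slc38a4 and Gm15599 (inside Arid1b) had 4. Of 17 genes with 3, Gm27813 (inside Itpr1) and Itpr2 had the highest −log10 q. Itpr1 and Itpr2 encode inositol trisphosphate receptors, the calcium release channels of the endoplasmic reticulum. The Itpr1 sites lay within 21.6 kb of each other in introns 40 and 44 of 61 and had −log10 q of 27.4, 6.37 and 5.02. The Itpr2 sites lay in introns 31, 36 and 44 of 55 and had 4.70, 22.0 and 3.32. Both genes thus had 1 strong site beside weaker ones.

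At core clock genes the unique intronic sites were weaker than the intervals that all libraries called. The library had 10 such sites in 7 of 22 core clock genes (31.8%, against 5.32% of all protein-coding genes and a mean share of 7.15% for genes of the same lengths). Their median −log10 q was 5.34 (range 1.89 to 28.4). The 14 intervals that all 8 libraries called had a median of 339 in this library (152 to 442), and the 13 called in 2 to 7 libraries had a median of 31.3.

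Per1, which encodes a repressor of CLOCK and BMAL1, had the strongest of these sites, in intron 1 (chr11:69097328-69097912), with 62 fragments over 8.30 and −log10 q of 28.4. It sat between an upstream interval called in all 8 libraries (−log10 q 336 here) and one called in 6 libraries (87.9 here), and the nearest peak of another library was 643 bp away. Per2, another Period repressor gene, had a pair, in intron 9 (45 fragments over 8.49, −log10 q 14.5) and intron 7 (28 over 6.22, 6.79), while its interval in all 8 libraries had 367. Cry2, a Cryptochrome repressor gene, had a site of 52 fragments over 8.49 (chr2:92421704-92422100, −log10 q 19.7), 1399 bp from an interval that all 8 libraries called at 152 here. The intron of that site belongs by the annotation to another transcript that overlaps Cry2. The Cry1 site in intron 1 lay 526 bp from a call elsewhere and had 21 fragments over 5.79 (3.29), against 200 at the recurrent Cry1 promoter interval. These 4 genes thus carried a unique site and a recurrent one that was several times stronger.

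The others were weaker or further off. Nfil3, a repressor of D-box genes, had a site in its only annotated intron at 4.65, beside one called in 3 libraries at 38.3. Hlf, a D-box activator gene, had one at 2.37 in intron 2 of 4. Rora, the receptor that activates Bmal1, had 3 sites in intron 1 of its 735 kb gene, at 6.03, 4.55 and 1.89, and no interval at Rora was called in more than 2 libraries. Bhlhe40, Nr1d1, Nr1d2, Per3, Dbp and Tef had recurrent intervals and no unique intronic site.

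**Figure D4:**
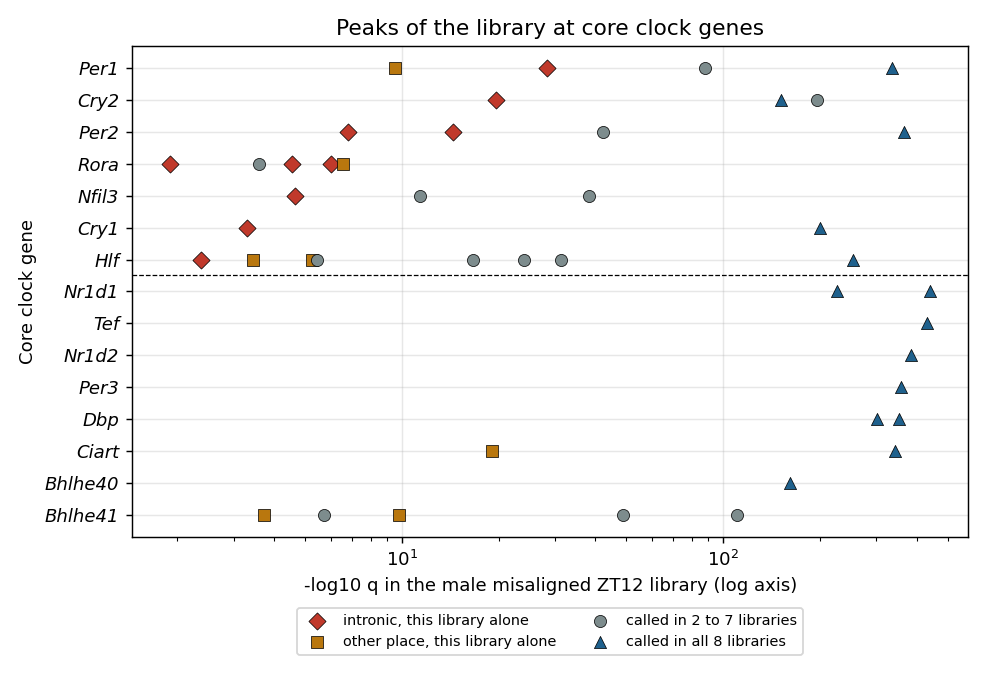
−log10 q in the male misaligned ZT12 library (horizontal log axis) of each of its peaks at core clock genes (rows), marked by the number of libraries that called the interval. Genes above the dashed line have a unique intronic site (diamonds, 1.89 to 28.4), and intervals called in all 8 libraries (triangles) stand at 152 to 442.

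Genes of the lists examined here, which cover the clock, metabolism, regulators and cell type markers, held unique intronic sites in a larger share than all protein-coding genes did. The lists were chosen with earlier results of these data known, so the counts are descriptions. Of 350 genes in 21 lists, 62 (17.7%) held a site, against 6.61% for genes of the same lengths and 5.32% for all protein-coding genes. By nearest start the count was 47 of the 350, against 3.65% of all protein-coding genes, and 24 within 10 kb, against 1.73%.

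Insulin and glucose signalling had the highest share, with 9 of 22 genes and 13 sites. The share was 40.9% (exact interval 20.7 to 63.6), against 9.13% for genes of these lengths. Pcx encodes pyruvate carboxylase, which starts gluconeogenesis from pyruvate, and held 2 sites in intron 2 with 38 fragments each over 5.00 and 5.98 (−log10 q 16.9 and 14.4). Ppargc1a, the coactivator PGC-1 alpha of the fasting response, held 2 in its intron 2, with 30 fragments over 4.63 (11.2) and 22 over 5.56 (4.09). Grb10, an adaptor that dampens insulin receptor signalling, had one at 5.58, Slc2a2, the hepatocyte glucose transporter, a pair at 3.47 and 2.59, and Insr, the insulin receptor gene, one at 2.16. Foxo3, Gsk3b and Grb14 had sites at 1.93 to 3.61. Irs2, an insulin receptor substrate gene, had a site 1316 bp upstream of its start (5.81), in an intron of 9530052E02Rik and 351 bp from a peak of another library. Outside Pcx, Ppargc1a and Grb10, no site inside a gene of this list reached −log10 q of 5.

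Glucocorticoid and cAMP response genes held sites in 6 of 16 genes with 12 sites, against 10.6% for genes of these lengths. Besides Per1 they were Pde4d and Pde4b, the cAMP phosphodiesterase genes (5 and 2 sites, up to 9.55 and 6.42), Zbtb16, a zinc-finger gene induced by glucocorticoids (9.21 and 6.57), Klf9 (5.83), a Krüppel-like factor gene also on the clock output list, and Fkbp5, a chaperone gene of the receptor complex (2.14). The glucocorticoid-induced Klf15 was the nearest gene of 2 sites outside its body, 49281 bp and 27009 bp from its start (6.51 and 2.49). By the annotation the stronger of them lay in an intron of Aldh1l1. Clock output genes with a site were 3 of 12, against 5.13% for genes of these lengths, namely Por, Klf9 and the cell-cycle inhibitor Cdkn1a (3.35).

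In bile acid and xenobiotic metabolism 5 of 21 genes held a site, against 5.94% for genes of these lengths, and here the strong ones were several. Por encodes the electron donor of microsomal cytochromes P450, and its site in intron 1 had 56 fragments over 7.82 (chr5:135707715-135708303, −log10 q 24.6). Nr1i2 encodes PXR, the xenobiotic receptor, with 65 fragments over 12.0 in intron 1 (chr16:38279591-38280001, 22.2). Fmo5, a flavin monooxygenase gene, had a pair (15.9 and 7.35). Aox3, an aldehyde oxidase gene, had a site inside it (3.91) and another nearest to it but inside Aox1 (4.53), and Cyp7b1, an oxysterol hydroxylase gene, had one (3.62).

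Lipid genes had fewer. In lipogenesis 4 of 20 genes held a site, with Dgat2, which makes triglyceride, at 46 fragments over 7.91 (16.3), Acacb, an acetyl-CoA carboxylase gene, at 35 over 6.47 (11.1), and Acaca and Elovl5 at 2.99 and 2.30. In cholesterol synthesis and uptake 4 of 23 held one, namely Sc5d, a late enzyme of synthesis (14.3), Scarb1, the HDL receptor gene (7.37), Abca1, a cholesterol efflux pump gene (7.26), and Srebf2, the master regulator (3.49), and Fdft1 was nearest to another (4.87). In fatty acid oxidation 4 of 21 held one, with Cpt1a, the gate to mitochondrial oxidation, at 7.34, Ppara, the fasting receptor, at 3.97, and Cyp4a10 and Hadhb at 2.66 and 2.08. For genes of the same lengths the mean shares were 8.26%, 5.07% and 4.77% in these 3 lists, all below the lists' own shares. The exact intervals of the lists' shares were wide, at 5.73 to 43.7, 4.95 to 38.8 and 5.45 to 41.9 in the same order. For lipogenesis and cholesterol the interval includes the mean share, so an excess is not shown there.

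Regulators followed. Liver transcription factor genes had 4 of 20 (exact interval 5.73 to 43.7%, which includes the mean share), against 8.46% for genes of these lengths. They were Foxa3 at 39 fragments over 5.60 (16.2), Gata4 at 6.12, Rxra, the partner of many nuclear receptors, at 4.78 and Nfia at 3.76. Chromatin regulators had 6 of 24 (exact interval 9.77 to 46.7%, which includes the mean share), against 12.9% for these long genes. By nearest start the count was 1 of 24. Among the 6 were the coactivator Ncoa2 at 14.9, Smarca2 at 7.39, Chd2 at 6.22 and Tet2 at 3.91. Arid1b was another, at 2.12 to 5.65 over 4 sites. Growth hormone and growth factor signalling had 4 of 20 (exact interval 5.73 to 43.7%, which includes the mean share), against 9.23% for genes of these lengths. These were Lifr (8.58 and 4.22), Stat5b (3.91), Igf1 (3.19) and Ghr (2.91).

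The remaining lists had sites of −log10 q up to 5.04 inside their genes. Hepatocyte secreted and urea cycle genes had 2 of 25 (8.00%, against 3.07% for genes of the same lengths), Ahsg and Cps1 (3.08 and 1.45), and Apoa1 was nearest to a site inside Sik3 (3.30). Inflammation had Stat3 and Il1rap, 2 of 20 genes against a mean share of 4.03% (2.49 and 1.86). Heat shock had Hsf1, 1 of 16 genes against 2.33% (2.38). Male-biased liver genes had 2 of 17 by gene body against 4.22%, Bcl6 and Cyp7b1 (3.10 and 3.62). Female-biased liver genes had 0 of 18 by gene body against 6.88%. Markers of other liver cells had sites in 1 of 8 stellate genes (Reln, 2.91), 2 of 9 endothelial genes (Stab2 and Flt1, 5.04 and 3.47, against 8.56% for genes of the same lengths), and 0 of 8 Kupffer and myeloid, 0 of 6 cholangiocyte and 0 of 8 lymphocyte genes. In every list of this paragraph the exact interval of the share included the mean share for genes of the same lengths. A binding site gives no level of expression, so these counts do not measure cell content.

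**Figure D5:**
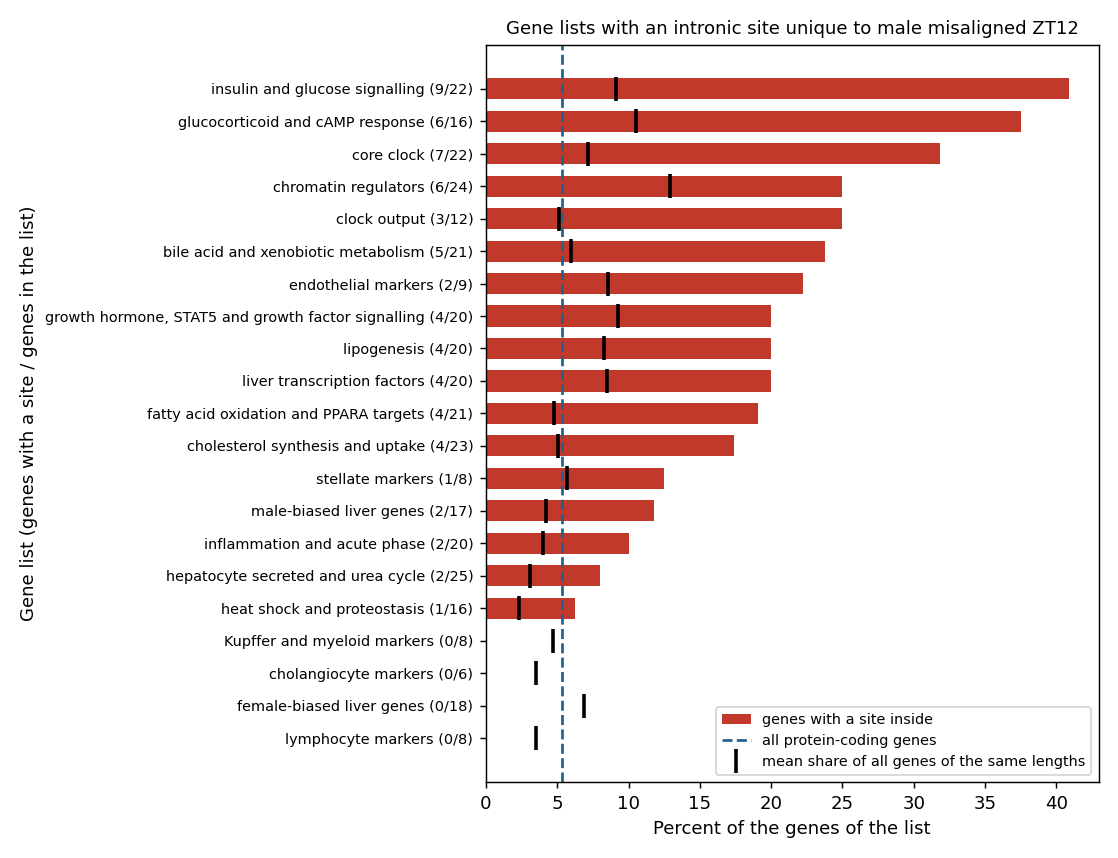
Percent of the genes of each list that hold an intronic site unique to male misaligned ZT12 (bars, with counts beside the names), the mean share for genes of the same lengths (black ticks) and the share of all protein-coding genes, 5.32% (dashed line). Insulin and glucose signalling stands highest with 9 of 22 genes, and 4 lists have none.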

How the data were processed

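Peaks come from the authors' deposited lists, 1 per BMAL1 library. The submitters' processing notes name BWA 0.7.17-r1188, MACS2 2.2.7.1 and the build GRCm38. The cut-off on q, the read depth and use of the IgG libraries are not given in the sources used here. The authors' deposited lists give each peak a fold enrichment (a ratio over local background), −log10 of its p and of its q, and a score that follows q and was not used. A deposited table merges overlapping peaks into 7043 intervals with true or false calls, nearest gene and annotation. Its calls matched the 9986 peaks, and its 48 further columns of values per library were not used.

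Summit fragments and local background were recovered from fold enrichment (pseudocount 1) and −log10 p within a relative tolerance of 0.0001, for 99.1% to 100% of peaks. Groups follow the labels. With 1 library a group no test was run. Shares carry exact Clopper-Pearson 95% intervals, medians order-statistic intervals and densities Poisson intervals, which cover counting error only, since sites are not replicates. The members and gene lists were chosen with earlier results of these data known. Genes were named by rule: the 15 strongest sites, the 5 genes with most sites, core clock genes, up to 3 genes of each list and the 3 values on each side of the limits. Those named beyond it were chosen after their values were seen, and a few genes of the lists are counted but not reported here by name.

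Gene bodies and promoter windows are from RefSeq GRCm38.p6, the build of the files. All 350 list genes matched, as did 1399 of 1537 sites to a protein-coding gene. "Genes of the same lengths" is the mean share over the 5 length classes of the genes of a list. Alternatives varied the q threshold, the overlap that counts as shared, chromosomes, background, list length and gene assignment. Python 3.11.15, pandas 2.3.3, numpy 2.4.6, scipy 1.17.1 and matplotlib 3.10.9 were used, and recovery was checked on simulated data.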

Additional observations from a re-analysis of the deposited data

How the results depend on the processing

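No paired analysis was possible because every group had 1 library. Against 1537 sites as reported, 1077 met the rule when peaks below −log10 q of 3 were dropped from every list and uniqueness was called again (1052 of the 1537 reached 3, so some of the 1077 are other sites), and there a peak of another library lay within 10 kb of 10.1% of sites (11.8% as reported), the median −log10 q was 5.63 and 91 genes had 2 sites or more by nearest start (160 as reported). With −log10 q of at least 5 in the male misaligned ZT12 list, 616 sites, a median of 7.83 and 42 such genes were found. Shortening that list to the 1864 peaks of the next longest left 280 sites, a median of 12.5, 11 such genes and 37.1% of sites within 10 kb of a start (40.4% as reported). The share with a neighbour within 10 kb was 9.66% where a peak of another library within 1 kb counted as shared, and 15.4% where sharing needed 50% overlap of both peaks. The share in intron 1 ran from 41.8% to 44.2% over all 7 alternatives. Of the 350 list genes, 24 had a site within 10 kb of their start and 22 a site with −log10 q of at least 5, against 47 by nearest start as reported. Counts by list also depended on the gene assignment. Chromatin regulators had 6 by gene body and 1 by nearest start, glucocorticoid and cAMP response genes 6 and 4, and growth hormone genes 4 and 2. Cholesterol genes had 4 and 5, female-biased genes 0 and 1, and core clock genes 7 by both. With 1 library a group and no IgG peaks, uniqueness to this library cannot be told apart from its list length and depth, and an uncalled site elsewhere is not an absent one.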
